A study of Mus musculus with 16 samples.

Results

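In the ChIP-seq of XX and XY mouse ES cells, 496 stretches of the autosomes carried broad H3K4Me1 but neither broad H3K27Ac nor broad H3K27Me3. The stretches were chosen by measured widths. The female and male lists of H3K4Me1 regions were joined where they overlapped, which gave 39121 stretches on chromosomes 1 to 19, and 1326 of these were 30 kb or wider. Those that held regions of both lists and met no joined H3K27Ac stretch of 15 kb or wider and no joined H3K27Me3 stretch of 20 kb or wider were kept. Of the other broad stretches, 772 overlapped broad H3K27Ac, 57 overlapped broad H3K27Me3 alone and 1 was found in 1 list only. The remaining 37795 stretches were under 30 kb.

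The lists came from female (XX) and male (XY) ES cell lines derived from hybrids of C57BL/6 and CAST/EiJ mice and taken at passages 7 to 10 by the labels. No line carried a labelled mutation or treatment, and all were grown in serum and LIF over inactivated feeder fibroblasts from male and female embryos, and the feeders were depleted at harvest. The labels give 2 female lines (BCF3 and BCF4) and 2 male lines (BCM1 and BCM2) for each of 3 marks, with 1 IgG and 1 input library per sex. A single list was given per sex and mark, so there were no replicates within a list and no test, SD or standard error between the sexes could be computed. On the autosomes the female and male lists held 38822 and 34459 regions of H3K4Me1, 27785 and 25301 of H3K27Ac, and 18270 and 14977 of H3K27Me3. Depth was unknown, because the lists hold coordinates alone. As a check of the cell type, H3K27Ac lay at the starts of 7 of 7 pluripotency markers in the female list and in the male list, and at 0 of 10 fibroblast markers in the female list and in the male list. At that check, H3K27Me3 lay at 6 of the fibroblast markers in the female list and at 5 in the male list. It also lay at 1 of the pluripotency markers in the female list (Esrrb) and at 2 in the male list (Esrrb and Klf4).

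H3K4Me1 is placed on nucleosomes by the Mll3 and Mll4 methyltransferases and marks enhancers, both active and primed. H3K27Ac, added by p300 and CBP, marks active enhancers and promoters, while H3K27Me3 is the mark of Polycomb repressive complex 2. At active promoters the nucleosomes next to the start site are trimethylated at H3K4, and monomethylation lies to either side and into the gene. In ES cells wide domains of H3K27Ac are known at genes of pluripotency factors.

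The sequences below show the ends of the contrast found inside the stretches, gene starts and the parts with H3K4Me1 alone. All are mm9, run 5′ to 3′ on the strand of the gene, are 300 bases long and carry each CpG dinucleotide in capitals. The first pair comes from the widest stretch, over Igf2bp2, which encodes an RNA-binding protein. The first of its sequences lies directly before the gene start at chr16:22163373-22163672 and the second in an intron at chr16:22109250-22109549, in the middle of the longest intronic piece of the stretch without H3K27Ac or H3K27Me3.
Igf2bp2 before the start: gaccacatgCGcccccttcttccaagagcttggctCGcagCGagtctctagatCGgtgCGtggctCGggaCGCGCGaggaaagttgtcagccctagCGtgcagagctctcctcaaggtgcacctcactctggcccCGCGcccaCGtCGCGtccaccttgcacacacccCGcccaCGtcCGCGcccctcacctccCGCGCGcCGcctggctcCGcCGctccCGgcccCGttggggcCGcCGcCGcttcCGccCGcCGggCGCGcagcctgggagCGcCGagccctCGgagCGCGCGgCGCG
Igf2bp2 intron, H3K4Me1 alone: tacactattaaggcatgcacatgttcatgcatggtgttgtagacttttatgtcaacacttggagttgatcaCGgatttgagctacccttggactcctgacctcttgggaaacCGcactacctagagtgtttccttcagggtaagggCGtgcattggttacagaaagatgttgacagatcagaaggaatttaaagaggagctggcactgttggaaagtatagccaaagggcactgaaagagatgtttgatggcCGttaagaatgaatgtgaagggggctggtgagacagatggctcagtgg
The Igf2bp2 windows held 43 CpGs and 2 copies of the GC box before the start, and 4 CpGs and no GC box in the intron. The start window lay under H3K27Ac in both lists, and H3K27Me3 of the female list also reached into it. The GC box was searched as GGGCGG on both strands.

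The next pair comes from the second widest stretch, over Sipa1l3, a gene of the Rap GTPase-activating family, at chr7:30290480-30290779 before the start and chr7:30218951-30219250 in an intron. It is shown because it lacks that contrast.
Sipa1l3 before the start: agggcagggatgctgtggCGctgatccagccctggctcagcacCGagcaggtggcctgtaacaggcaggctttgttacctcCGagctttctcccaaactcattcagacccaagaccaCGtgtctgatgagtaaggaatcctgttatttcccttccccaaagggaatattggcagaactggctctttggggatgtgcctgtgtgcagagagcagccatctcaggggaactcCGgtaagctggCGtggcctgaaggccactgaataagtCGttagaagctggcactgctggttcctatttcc
Sipa1l3 intron, H3K4Me1 alone: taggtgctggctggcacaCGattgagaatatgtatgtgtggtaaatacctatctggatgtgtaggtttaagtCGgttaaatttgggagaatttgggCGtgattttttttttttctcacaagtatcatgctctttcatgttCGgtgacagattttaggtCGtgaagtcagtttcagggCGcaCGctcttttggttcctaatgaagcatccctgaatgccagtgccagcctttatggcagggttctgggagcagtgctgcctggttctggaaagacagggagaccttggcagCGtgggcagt
The Sipa1l3 windows held 7 and 8 CpGs. H3K4Me1 covered this intron window in the female list, while the male list had no H3K4Me1 region there. At Pitpnc1, a phosphatidylinositol transfer protein gene and the next widest stretch with 1 gene start, the windows held 17 CpGs before the start and 1 in the intron. The last sequence belongs to Ccdc85c, whose start lay 428 bp outside the stretch that covers its body, at chr12:109513628-109513927.
Ccdc85c before the start: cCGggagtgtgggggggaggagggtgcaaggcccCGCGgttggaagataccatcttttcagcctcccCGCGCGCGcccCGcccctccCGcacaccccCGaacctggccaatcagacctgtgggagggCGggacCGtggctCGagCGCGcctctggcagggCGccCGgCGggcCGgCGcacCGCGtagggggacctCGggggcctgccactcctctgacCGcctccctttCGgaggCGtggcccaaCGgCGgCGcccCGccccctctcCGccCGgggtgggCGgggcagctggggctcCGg
The Ccdc85c window held 34 CpGs and 5 GC boxes, and no H3K4Me1 region of either list reached into it.

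These windows stand for a wider pattern. Windows of 300 bases before the 521 gene starts inside the stretches held a median of 16 CpGs (quartiles 8 and 23), and before the 79 starts that lay up to 2 kb outside a stretch with the gene running into it, a median of 29 CpGs (quartiles 20 and 38). Windows in the middle of the 1557 pieces with H3K4Me1 alone held a median of 3 CpGs, and in the middle of the 1409 H3K27Ac pieces a median of 4. Before all autosomal protein-coding gene starts the median was 10 CpGs. A GC box was present in 56.8% of the windows before starts inside the stretches, 83.5% of those before starts just outside, 41.2% of those before all starts, and 4.30% of the windows with H3K4Me1 alone. Gene starts just beyond the end of a stretch were thus richer in CpGs than those inside it, a description over windows with no test.

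The 496 stretches covered 19.99 Mb, with a median width of 36.4 kb (quartiles 32.8 and 44.4, range 30.2 to 108.6). Of these, 175 were 40 kb or wider and 77 were 50 kb or wider. The narrowest were a stretch at Cog1 and a stretch at Psmc1, both of 30.2 kb, while a stretch at Rnf145 missed the limit by 1 base. In all, 7 stretches that met the other criteria missed it so, since each region ends 1 base short of the 200 bp grid on which the lists are drawn. Eif3l and Arhgap8 lay just inside the H3K27Ac limit, with H3K27Ac 1 base short of it, and Nudt4 just outside with 15.2 kb. Foxp4 and Esrra lay just inside the H3K27Me3 limit with 19.6 kb, and Ewsr1 just outside with 21.0 kb.

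The width of many stretches was a product of joining the lists. A region of 30 kb or wider stood in the female list at 216 stretches and in the male list at 202, in both at 90, and in neither at 168 (33.9%, exact binomial 95% interval 29.7 to 38.2). Among the 772 broad stretches with broad H3K27Ac, 97 (12.6%) had no such region in either list. The female list split a stretch into 1 to 6 regions and the male list into 1 to 5, with a median of 2 in each, and 51 stretches were 1 region in each list. The bases of the stretches in both lists made up 85.5%, against 91.1% with broad H3K27Ac and 61.8% in stretches under 30 kb. The broad classes had to hold regions of both lists, while stretches of 1 list only were not removed from those under 30 kb. Intervals here and below cover counting error only, and stretches of a genome are not replicates of a sex.

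The widest stretch followed Igf2bp2 from end to end. It lay at chr16:22058601-22167199, was 108.6 kb wide and held 108.0 kb of H3K4Me1 in the female list and 90.8 kb in the male list. The gene ran between 0.481 and 104.8 kb from the left end of the stretch. H3K27Ac formed 6 regions in each list, 37.8 kb in the female list and 34.2 kb in the male list. H3K27Me3 covered 5.40 kb of the stretch in the female list and 3.20 kb in the male list. The Sipa1l3 stretch (chr7:30211401-30303599, 92.2 kb) held 89.8 kb of H3K4Me1 in the female list, as 1 region, and 90.4 kb in the male list, as 3. Rptor, which encodes the Raptor subunit of mTORC1, was covered for 88.0 kb within its gene, with 23.2 kb of H3K27Ac in the female list and 17.2 kb in the male list. Cdyl, a chromodomain protein gene, carried 12 kb of H3K27Ac in each list in a stretch of 81.4 kb. In none of the stretches at Sipa1l3, Rptor, Cdyl and Plekha7, an adherens junction gene, did either list show H3K27Me3. The Plekha7 stretch ended 1 base before another H3K4Me1 stretch, which met broad H3K27Ac. In the male list that H3K27Ac ran from 95 to 129.2 kb, counted from the left end of the Plekha7 stretch. The last base of the grid, if counted, would join these stretches and take Plekha7 out of the group.

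**Figure D1:**
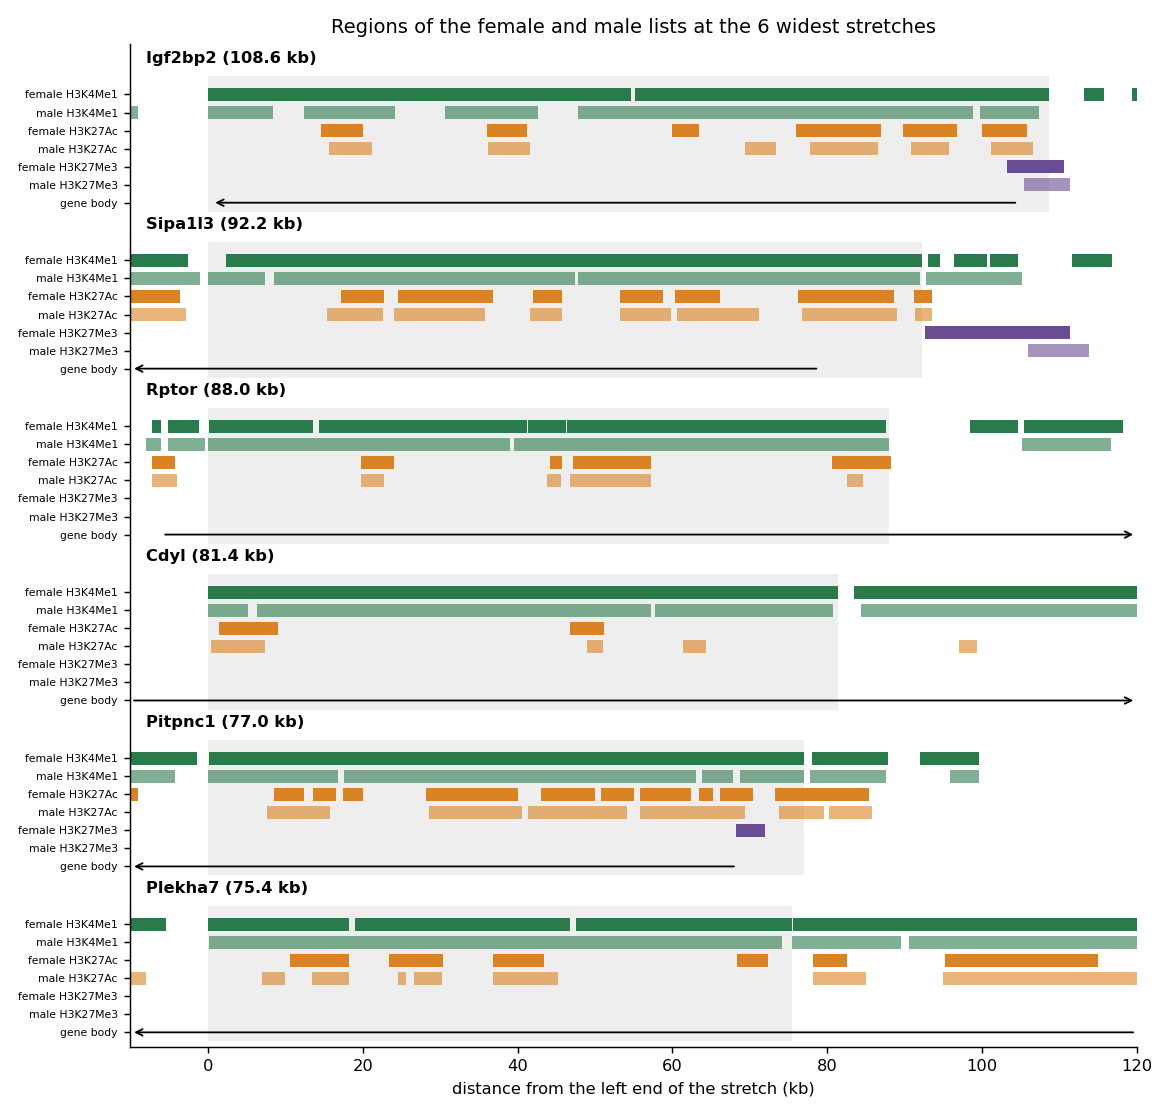
Regions of the female and male lists at the 6 widest stretches, drawn to scale in kb from the left end of each stretch. Grey boxes mark the stretch, bars inside and beside it are regions of the 3 marks, and arrows run in the direction of transcription, cut at the edge of the panel. H3K27Ac appears as several short regions within long H3K4Me1, as in the 6 separate regions of each list at Igf2bp2. At Plekha7 the H3K4Me1 directly right of the grey box belongs to a separate stretch with broad H3K27Ac.

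Next in width were Pitpnc1 (77.0 kb), Plekha7 (75.4 kb), the stretch with Cdc42ep4, Cpsf4l and D11Wsu47e (75 kb), and those at Ccdc85c with Ccnk, which encodes cyclin K, and at Pptc7 with Tctn1 (73.8 kb each). Gpatch1 with Rhpn2 followed at 73.0 kb, then Rere, a nuclear receptor corepressor gene, at 70.4 kb, Pex14, a peroxisomal import gene, at 69.2 kb, and Casz1, a zinc finger factor gene, at 67.4 kb. Gli2, a transcription factor of Hedgehog signalling, lay in a stretch of 66.4 kb. A cluster of the major histocompatibility region with Msh5, Ddah2, Clic1 and Ly6g6c had the same width. Among these 15 stretches the female list covered 57.8 to 108.0 kb and the male list 57.8 to 90.8 kb.

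A gene could overlap more than 1 stretch. There were 23 protein-coding genes that overlapped 2 or more stretches, with 3 each at Med13l, a subunit of the Mediator kinase module, and Ptprg, a receptor tyrosine phosphatase. These genes ranged in length from 8.1 kb (4930511I11Rik) to 688.5 kb (Ptprg). There were 16 pairs of neighbouring stretches up to 5 kb apart, and 14 of these pairs shared a gene. At Cdyl, 2 stretches of 81.4 and 55.8 kb lay 2 kb apart and spanned 139.2 kb together. At Ppard, a nuclear receptor gene, stretches of 51.8 and 57.4 kb met on the grid with 1 base between them. An H3K4Me1 stretch that abutted in this way lay beside 19 of the 496 stretches (3.83%).

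Most stretches held a gene start. In 374 of the 496 (75.4%, interval 71.4 to 79.1) at least 1 protein-coding TSS lay inside, where a TSS is the start of any annotated transcript. The share was 80.6% (77.6 to 83.3) for broad stretches with broad H3K27Ac, 94.7% (85.4 to 98.9) for those with broad H3K27Me3, and 29.9% for stretches under 30 kb. Wider stretches hold more starts by width alone, and per Mb the stretches held 31.1 genes with a TSS, against 28.1, 47.5 and 41.0 in those classes. Together they held a TSS of 621 genes, 2.9% of the 21418 autosomal protein-coding genes, and overlapped 792 genes, 3.7%. Broad stretches with broad H3K27Ac held a TSS of 1151 genes, 5.37%.

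**Figure D2:**
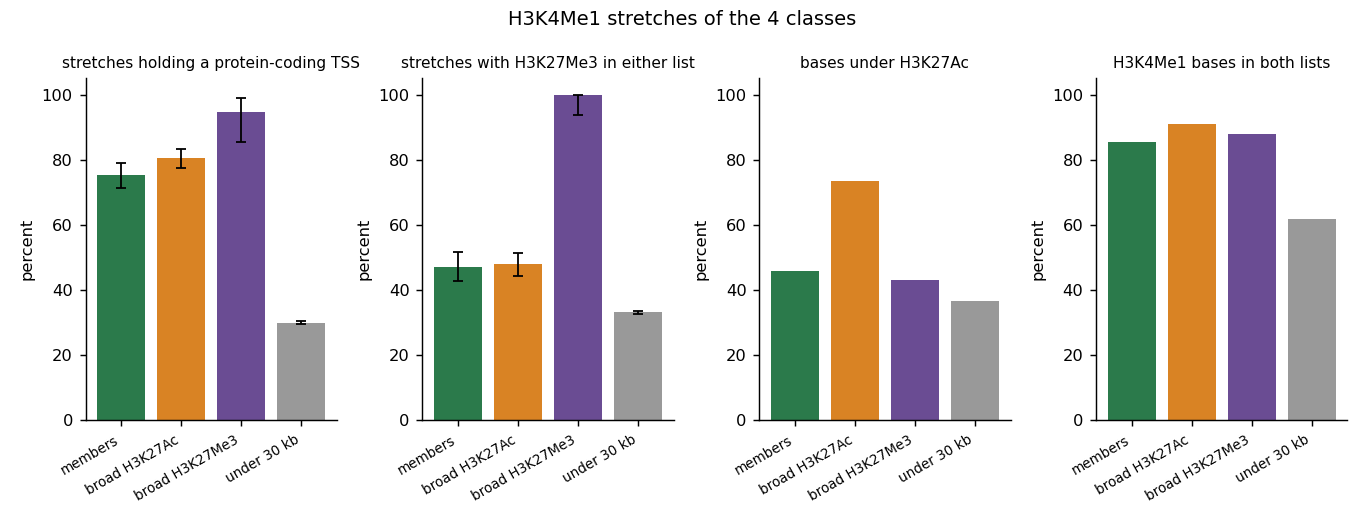
Shares, in percent, for the 496 stretches and for broad stretches with broad H3K27Ac (772), with broad H3K27Me3 (57) and under 30 kb (37795). Error bars are exact binomial 95% intervals of shares of stretches, and the right-hand panels are shares of bases without an interval. The 496 stretches held a protein-coding TSS in 75.4% and had 45.9% of their bases under H3K27Ac. The H3K27Ac and H3K27Me3 panels show marks that the rule itself limited. In the panel of bases in both lists, the broad classes had to hold both lists and stretches under 30 kb did not.

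Most of the bases lay within genes. Protein-coding gene bodies took up 79.6% of their bases, against 71.1% with broad H3K27Ac, 67.7% with broad H3K27Me3 and 61.6% under 30 kb. Introns made up 71.9% of the bases, exons 7.71% and sequence between genes 19.2%. In 227 stretches (45.8%, interval 41.3 to 50.3) over 90% of the bases were genic, against 268 of 772 (34.7%, 31.4 to 38.2) with broad H3K27Ac. No protein-coding TSS was found in 122 stretches, of which 103 overlapped a protein-coding gene and 93 lay over 90% within one or more. At 19 stretches there was no protein-coding gene body, and 13 overlapped no annotated gene of any kind. The widest of these 13 lay at chr7:87955801-87994999 (39.2 kb). It had 33.6 kb of H3K4Me1 in the female list and 37.6 kb in the male list, and 10.8 kb of H3K27Ac in the female list and 29.4 kb in the male list. The next 4, on chromosomes 1, 1, 13 and 6, were 36.8 to 38.8 kb wide, and each held H3K27Me3 in both lists.

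Over the 521 genes that start inside a stretch, by the upstream end of the gene model, the stretch reached a median of 13.1 kb upstream and 24.9 kb downstream, and for 333 (63.9%) the downstream side was longer. Among 158 stretches that held 1 such start alone, it reached a median of 6.82 kb upstream and 29.1 kb downstream, and in 136 (86.1%) the downstream side was longer. Their genes had a median length of 53.7 kb, and the stretch reached the end of the gene in 41. With broad H3K27Ac (242 such stretches) the medians were 11.3 kb upstream and 33.9 kb downstream, and 79.8% were longer downstream. Over all 521 genes, median gene length was 15.6 kb, near the 15.5 kb of all autosomal protein-coding genes.

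H3K4Me1 dipped at the start itself. Of the 792 genes that overlapped a stretch, H3K4Me1 covered 88.3% in the female list and 86.6% in the male list at 1 kb upstream, 77.9% and 70.3% at the start, and 90.7% and 89.9% at 1 kb downstream. H3K27Ac was most frequent at the start, at 80.7% in the female list and 79.9% in the male list, and by 5 kb downstream was at 32.2% in the female list and 30.3% in the male list, where H3K4Me1 still covered 85.5% and 80.8%. Over all autosomal genes H3K4Me1 covered 47.7% in the female list and 47.5% in the male list at 1 kb upstream. At the start it covered 46.2% and 43.2%. For genes overlapping broad stretches with broad H3K27Ac the values were 90.7% and 89.8% at 1 kb upstream and 79.8% and 73.8% at the start. The dip at the start was deeper in the male list in each of these gene sets, a difference between 2 lists with no replicates. The 792 genes were chosen by overlap with broad H3K4Me1 that lacks broad H3K27Ac. Wide H3K4Me1 beside little H3K27Ac away from the start therefore follows in part from the rule.

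**Figure D3:**
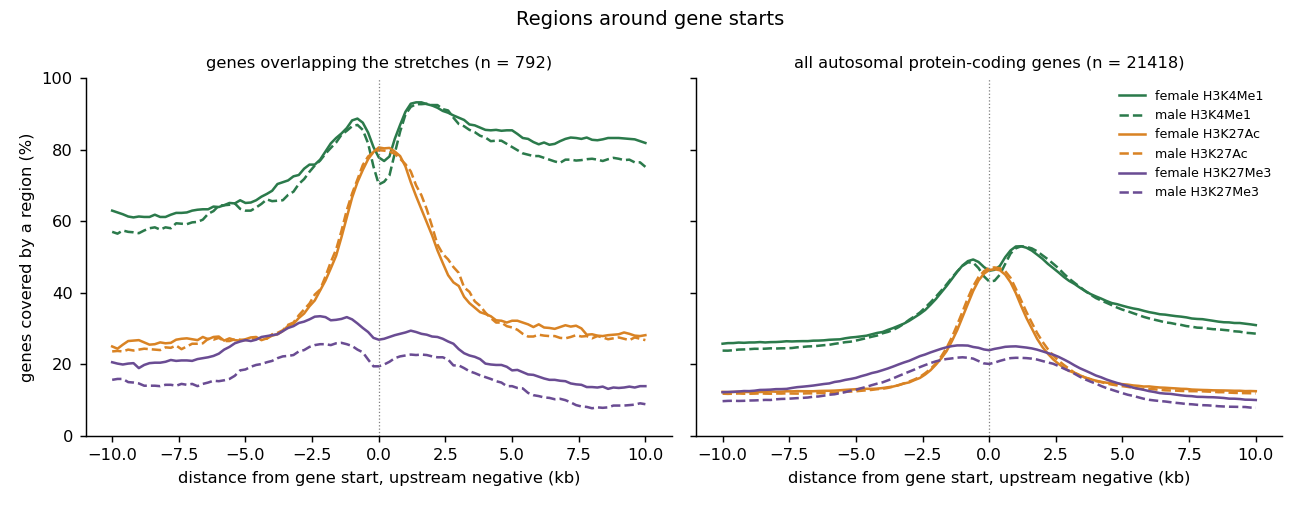
Percent of genes covered by a region (vertical axis) by distance from the upstream end of the gene model in kb, for the 792 genes overlapping a stretch and all 21418 autosomal protein-coding genes. Solid lines are the female list and dashed lines the male list. H3K4Me1 of the 792 genes dips where H3K27Ac peaks, to 77.9% in the female list and 70.3% in the male list, and stays high downstream. The rule chose these genes by broad H3K4Me1 without broad H3K27Ac, so their levels away from the start are in part set by it.

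Some stretches stopped short of the start. At 79 of the 992 stretch ends (7.96%) a protein-coding gene started within 2 kb outside and ran into the stretch, and at 63 it did so within 1 kb, against 153 of 1544 ends (9.91%) within 2 kb for broad stretches with broad H3K27Ac. Map4k4, a kinase gene, started 243 bp outside a stretch of 64.4 kb. Celf1, which encodes a regulator of splicing, did so 662 bp outside a stretch of 60.2 kb. Spen, whose protein is recruited by Xist RNA, started 713 bp outside a stretch of 44.4 kb. These 3 genes were chosen after their values were seen. Of the 621 gaps up to 5 kb that separated a stretch from the next H3K4Me1 stretch, 93 (15.0%) held a protein-coding TSS, and in 75 of those 93 a TSS lay under H3K27Ac.

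The rule barred broad H3K27Ac alone, and short H3K27Ac remained in nearly all stretches. It was present in 486 (98.0%), in both lists in 480, in neither in 10, female-only in 5 (1.01%) and male-only in 1 (0.202%). Over all 39121 stretches, 6.63% had female-only and 3.61% male-only H3K27Ac, though most of those were narrow. The name of the group therefore describes the width of H3K27Ac, not its absence. A median stretch held 3 joined H3K27Ac stretches, the widest of 10.0 kb, and had 46.9% of its bases under H3K27Ac (quartiles 32.7 and 60.3). In sum 45.9% of bases were under H3K27Ac, against 73.4% with broad H3K27Ac, a difference the rule set. Female and male H3K27Ac covered 7.68 and 7.20 Mb, a female to male ratio of 1.07, against 1.06 over all stretches.

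The stretches with H3K27Ac in 1 list only were named after their values were seen. Those of the female list were at Jag2 with Nudt14 (4 kb), Asxl1 (2.60 kb), Slit1 (3.60 kb), Myst4 (4.4 kb) and Rap1gap (3.80 kb), and that of the male list at Stk24 (3.80 kb). Jag2 encodes a Notch ligand, Asxl1 a Polycomb-associated protein and Myst4 a histone acetyltransferase. Jag2 and Asxl1 were also among the stretches with the largest excess of female H3K4Me1. The amounts were small, none over 4.4 kb.

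All 10 stretches without H3K27Ac could be set out by gene start. The 4 that held a protein-coding TSS, at Pacsin1, at Bin2 with Cela1, at Fam131c and at Acvrl1, all had H3K27Me3 in both lists. For Acvrl1, a receptor of the TGF-beta family, this was 15.6 kb in the female list and 14.8 kb in the male list. For Pacsin1, an endocytic adaptor gene, it was 16.2 kb in the female list and 11.2 kb in the male list. Of the 6 without a protein-coding TSS, 4 lacked H3K27Me3 in both lists. These were inside Dyrk1a, a protein kinase gene, 1700081L11Rik, Ntn1, which encodes a netrin, and Med13l. Nxn had 6.40 kb of H3K27Me3 in the female list and 0 in the male list, and a stretch between genes on chromosome 11 had 0 in the female list and 2.60 kb in the male list. The Dyrk1a stretch was the widest of the 10, with 47.4 kb of H3K4Me1 in the female list and 48.8 kb in the male list.

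H3K27Me3 was present in 234 stretches (47.2%, interval 42.7 to 51.7), close to the 47.9% (44.4 to 51.5) of broad stretches with broad H3K27Ac. The limit of 20 kb on joined H3K27Me3 was applied to the 496 stretches and not to those with broad H3K27Ac. Among the 496, H3K27Me3 was in both lists in 165, female-only in 54 (10.9%, 8.29 to 14.0) and male-only in 15 (3.02%, 1.70 to 4.94). Over all stretches 8.74% had female-only and 3.49% male-only H3K27Me3. Female H3K27Me3 covered 2.1 Mb of the 496 stretches and male H3K27Me3 1.43 Mb, a ratio of 1.47, against 1.24 over all stretches and 1.37 with broad H3K27Ac. The whole autosomal lists held 109.8 Mb in the female list and 88.4 Mb in the male list, and the part of that difference, or of depth, in the ratio was not tested. Stretches with H3K27Me3 were richer in GC, with a median of 49.6% against 45.0% in those without, and 86.3% of them held a protein-coding TSS against 65.6%, values given with no test.

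By the summed amount in a stretch, the most H3K27Me3 found in 1 list only was 25.4 kb in 4 regions, at Def6, Zfp523 and Ppard in the female list. Rap1gap, a GTPase activator of Rap1, came next with 18.8 kb in 3 regions in the female list, and a cluster with Vars and Msh5 had 11.6 kb there. In the male list the largest sum was 7.20 kb at Gm13251, followed by 6.20 kb at a stretch with Pias3, each in 2 regions. Smad3 held 6.60 kb in the female list only, Grb2 1.4 kb in the female list only, and Fgfr1 3.60 kb in the male list only. Other than list genes, these were picked after their values were seen.

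At the gene starts themselves both marks were found. Of the 621 genes with a TSS inside, 551 (88.7%, interval 86.0 to 91.1) had H3K27Ac at a TSS in either list. Of the 621, 20 (3.22%) were female-only and 16 (2.58%) male-only. For the 1151 genes in broad stretches with broad H3K27Ac the share was 95% (93.6 to 96.2). H3K27Me3 lay at a TSS of 208 genes (33.5%, 29.8 to 37.4), female-only at 60 (9.66%) and male-only at 19 (3.06%). With broad H3K27Ac it was 23.2% (20.8 to 25.7), female-only at 6.69% and male-only at 2.52%. At the upstream end of the gene model alone, H3K27Ac covered 46.4% of all autosomal protein-coding genes in the female list and 47.0% in the male list. H3K27Me3 there covered 23.9% in the female list and 20.1% in the male list, against 26.9% and 19.4% of the 792 genes overlapping a stretch.

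H3K4Me1 itself was near equal in the lists. Female regions covered 18.7 Mb and male regions 18.3 Mb of the stretches, a ratio of 1.02, against 1.03 over all stretches. In 266 stretches (53.6%) the female list covered more, in 225 (45.4%) the male list, and in 5 they were equal. Among the 772 broad stretches with broad H3K27Ac, the female list covered more in 449 (58.2%) and the male list in 309. Over all 39121 stretches the female list covered more in 19570 (50.02%) and the male list in 18245 (46.6%). The difference in the 496 stretches, female minus male, had a median of 0.40 kb (quartiles -1.80 and 3.20) and ran between -13.4 and 20.6 kb. Such extremes were rare, and each is a single list against a single list.

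**Figure D4:**
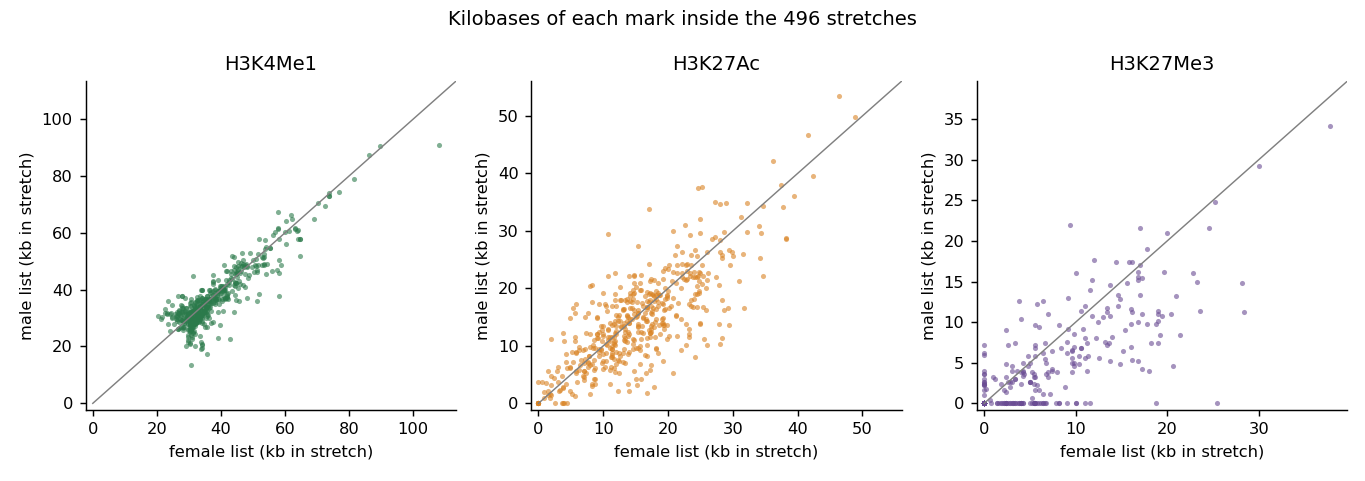
Kilobases of H3K4Me1, H3K27Ac and H3K27Me3 inside each of the 496 stretches, in the female list (horizontal axis) and the male list (vertical axis). Each point is a stretch and the line marks equal values. H3K4Me1 lies along the line, and H3K27Me3 has a row of 54 points at 0 kb in the male list and 15 at 0 kb in the female list.

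The largest excess of female H3K4Me1 was at Lat2 with Rfc2, a replication factor C subunit gene, at 58.2 kb in the female list, as 1 region, and 37.6 kb in the male list, as 5. Cct7, a chaperonin subunit gene, with Smyd5 had 42.8 kb in the female list and 22.6 kb in the male list. Jag2 with Nudt14 had 35.6 kb in the female list and 17.2 kb in the male list, and Gon4l with Syt11 had 30.8 kb in the female list and 13.6 kb in the male list. Igf2bp2, Cse1l, which encodes an export receptor, Hip1 and Asxl1 followed with 14.6 to 17.2 kb more in the female list. The male list had fewer regions than the female list at Gon4l with Syt11, 2 in the female list and 1 in the male list, and at Asxl1, 4 in the female list and 2 in the male list, and more at the other 6 of these 8 stretches.

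The largest excess of male H3K4Me1 was at Clasp1, a microtubule plus-end gene, with 31.4 kb in the female list and 44.8 kb in the male list. Btg2, an antiproliferative gene, had 23.6 kb in the female list and 36 kb in the male list. Kdm3a, an H3K9 demethylase gene, had 26.6 kb in the female list and 37.8 kb in the male list, and it started 500 bp outside its stretch. Tns3, Psme4, Ric8b, Foxo1 and Lama1 had 9.80 to 10.8 kb more in the male list. At Tns3, which encodes a tensin of focal adhesions, H3K27Ac was also higher in the male list, with 8.20 kb in the female list and 20.6 kb in the male list. At Kdm3a H3K27Ac ran the other way, with 19.2 kb in the female list and 14.0 kb in the male list.

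None of 27 pluripotency transcription factors had a TSS in a stretch, against 17 in broad stretches with broad H3K27Ac. Of 23 formative and primed pluripotency genes there was 1, Lef1, against 6. None of 49 developmental regulators bound by Polycomb had a TSS in a stretch. Of 36 enzymes that write or remove H3K4 and H3K27 methylation 1 did, Kdm2b, against 11 with broad H3K27Ac. The background was 2.9% of protein-coding genes, so 0 or 1 gene in lists of this size is near it. For broad stretches with broad H3K27Ac the background was 5.37%. The rule kept stretches with broad H3K27Ac or broad H3K27Me3 out of the group, so contrasts with those classes were in part set by it.

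Among the 8 lists, signalling genes had the largest share. Of 41 genes of LIF, FGF, Wnt and Nodal signalling 7 had a TSS in a stretch (17.1%), and 8 were in broad stretches with broad H3K27Ac. Of 35 genes of the cytoskeleton, adhesion and small GTPases there were 4 (11.4%), against 10. Single genes stood in the lists of 24 housekeeping genes (Actb) and 18 fibroblast markers (Fbln1). The lists were chosen with results of these data known, and no list was tested. Fbln1 had 7.00 kb of H3K27Ac in the female list and 5.60 kb in the male list. The part of feeder cells in this was not tested.

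**Figure D5:**
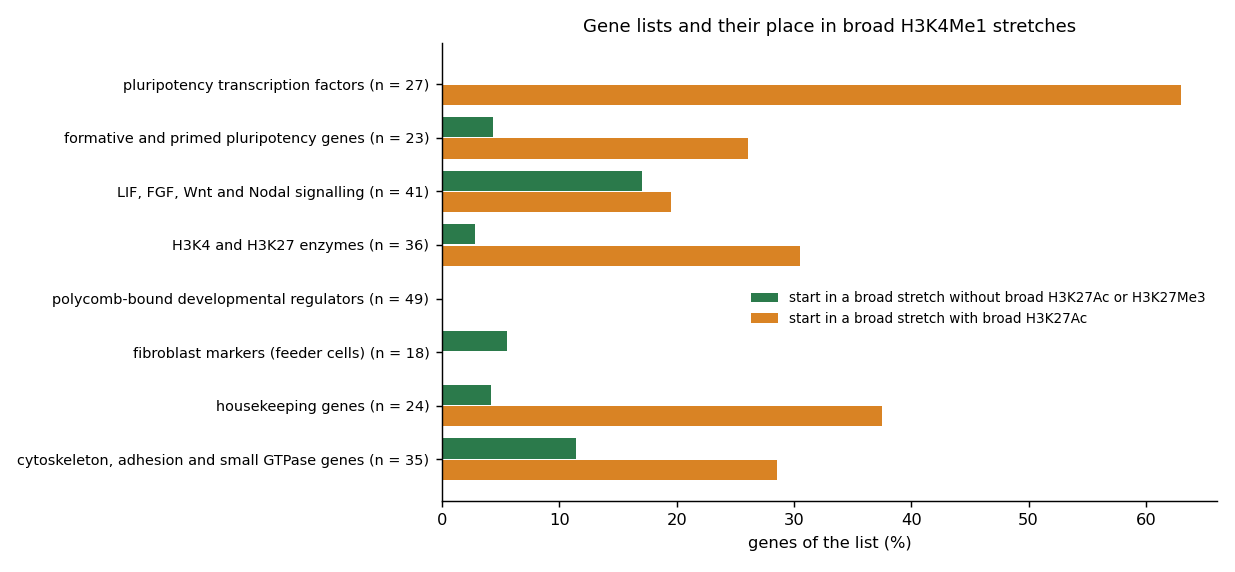
Percent of the genes of each list (horizontal axis) with a TSS in one of the 496 stretches (green) or in a broad stretch with broad H3K27Ac (orange), with the number of genes in brackets. Pluripotency transcription factors had 0 of 27 in the 496 stretches and 17 of 27 in those with broad H3K27Ac, a contrast in part set by the rule. Over all autosomal protein-coding genes the shares were 2.9% and 5.37%.

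The Wnt branch ran from beta-catenin to its DNA-binding partners. Ctnnb1, which encodes beta-catenin, lay in a stretch of 34.4 kb with 30.8 kb of H3K4Me1 in the female list and 34.4 kb in the male list, although the upstream end of the gene lay outside it and an internal TSS inside. Of the 4 TCF/LEF genes, a family picked out after its values were seen, 3 started in the stretches. Lef1 (50.6 kb) had 45.4 kb of H3K4Me1 in the female list and 49.8 kb in the male list. Tcf7 (50.2 kb) had 41.8 kb in the female list and 37.6 kb in the male list, and Tcf7l2 (36.4 kb) had 33.8 kb in the female list and 30.8 kb in the male list. Tcf7l1, the repressor of the family in ES cells, started instead in a stretch of 179.2 kb with broad H3K27Ac. Lef1 carried 11.0 kb of H3K27Me3 in the female list and 12 kb in the male list, and Tcf7 carried 12.6 kb in the female list and 5.60 kb in the male list.

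In the TGF-beta branch, Smad3, which encodes a signal transducer, had 17.0 kb of H3K27Ac in the female list and 33.8 kb in the male list, and 6.60 kb of H3K27Me3 in the female list and 0 in the male list. Ski, an inhibitor of SMADs, had 2 stretches, and its start lay 102 bp outside the one of 41.4 kb. In the FGF branch, the receptor gene Fgfr1 had 41.0 kb of H3K4Me1 in the female list and 40 kb in the male list. The upstream end of Fgfr1 lay outside its stretch.

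Among genes of small GTPases, Rac1 had 2 kb of H3K27Ac in the female list and 11.2 kb in the male list in a stretch of 34.8 kb, and started 305 bp outside it. Tiam1, an exchange factor for Rac, had 30.2 kb of H3K4Me1 in the female list and 31 kb in the male list. Arhgef2, a guanine nucleotide exchange factor gene, had 25 kb of H3K27Ac in the female list and 32.0 kb in the male list. Lama1, a laminin chain gene, had 28.0 kb of H3K4Me1 in the female list and 37.8 kb in the male list. Kdm2b, a subunit of a variant Polycomb complex that binds CpG islands, was covered over its downstream part, with its upstream end outside. In this stretch, which also held a TSS of Rnf34, H3K27Ac was 27.8 kb in the female list and 13.8 kb in the male list. Actb was covered from its body downstream, and started 834 bp outside.

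Some stretches covered gene clusters. A TSS of 1 protein-coding gene lay in 234 stretches, 2 in 78, 3 in 37, 4 in 14, and 5 or more in 11. The highest numbers were 11 gene models at the Msh5 and Ly6g6c cluster and 9 at a stretch with Notch4, Pbx2 and Ager, both on chromosome 17. A stretch with Anapc2 on chromosome 2 also held 9, and one at Abhd8 on chromosome 8 held 5. H3K27Me3 in the Msh5 and Ly6g6c cluster was 28.4 kb in the female list and 11.2 kb in the male list, and at Abhd8 it was 28.2 kb in the female list and 14.8 kb in the male list. At Notch4, H3K27Me3 was 16.8 kb in the female list and 5.20 kb in the male list.

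The sequence differed within the stretches by mark. H3K27Ac pieces (9.17 Mb) had a GC content of 48.1% and an observed to expected CpG ratio of 0.288, and 37.2% of the 1410 pieces held a protein-coding TSS. The 1639 pieces with H3K4Me1 alone (9.48 Mb, 47.4% of bases) had a GC content of 45.7% and a ratio of 0.216, and 11.1% held a protein-coding TSS. H3K27Me3 pieces had 50.9% and 0.311. All autosomes had 41.9% and 0.194. Whole stretches had a median GC content of 47.3%, against 47.6% with broad H3K27Ac and 46.4% under 30 kb.

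Motif matches per Mb, on both strands, were counted as a description. The motif of Esrrb, TCAAGGTCA, occurred 38.2 times per Mb in H3K27Ac pieces and 33.2 times in pieces with H3K4Me1 alone, against 22.5 over all autosomes. The octamer ATGCAAAT occurred 45.6 and 45.3 times in the same pieces, against 89.7 over all autosomes, and the Sox core ACAATGG 119.3 and 127.9 times, against 182.2. GGGCGG occurred 448.4 times per Mb in H3K27Ac pieces and 182.4 times with H3K4Me1 alone, against 119.9 over all autosomes.

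The stretches were spread over all 19 autosomes, with 53 each on chromosomes 5 and 11 and 12 on chromosome 12. Per 100 Mb, chromosome 11 had 43.5 and chromosome 12 had 9.90. Broad H3K4Me1 stretches of all classes numbered 94 on chromosome 5, 144 on chromosome 11 and 38 on chromosome 12. The contrast between chromosomes 11 and 12 was thus shared by broad H3K4Me1 as a whole. The chosen stretches lay close to other H3K4Me1, with a median gap of 1 kb to the nearest stretch, and 66.1% had a neighbour within 2 kb. This share was 72.5% for broad stretches with broad H3K27Ac and 70.2% for those with broad H3K27Me3.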

How the data were processed

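ChIP-seq libraries of female and male ES cells (16 samples) were aligned by the authors to mm9. Bowtie and deepTools are named in the submitters' processing notes. The study's methods name Bedtools for genome-wide read enrichment, and IgG is described as a control. The sources used here do not give the program that called regions from that, its threshold, whether IgG or input entered, or the way lines were pooled. The authors deposited 6 lists, 1 per sex and mark, as starts and ends on a 200 bp grid, with no count or signal. Widths are end minus start as deposited, 1 base short of the grid.

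Regions were joined where they overlapped in Python 3.11.15 (NumPy 2.4.6, pandas 2.3.3, SciPy 1.17.1), and the code was tested on simulated data. Genes came from GENCODE M1 and sequence from NCBIM37, the assembly of mm9. No test was made, as there were no replicates. Intervals are Clopper-Pearson. Members and gene lists were chosen with earlier results of these data known. Named were the 15 widest stretches, list genes, the 8 largest differences each way, the 5 with most TSSs, the 5 widest without a gene and the widest without H3K27Ac, besides those said to be chosen after their values were seen. Tfcp2l1, Sox1, Sox3, Nono and Flna were not analysed here. Some named items are not reported here.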

Additional observations from a re-analysis of the deposited data

How the results depend on the processing

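No paired analysis was possible because each list pools the lines of a sex and no test was made. The number of stretches was 854 at a width of 25 kb, 175 at 40 kb, 254 with an H3K27Ac limit of 10 kb, 216 with the width reached in the female list alone and 202 in the male list alone. The H3K4Me1 ratio, female to male, was 0.971 with the width reached in the male list alone. Stretches with H3K27Ac in the female list only numbered 10 with regions up to 1 kb apart joined, 14 at 25 kb, 0 at 40 kb, 3 with an H3K27Me3 limit of 10 kb, and 2 with the width reached in the female or in the male list alone. Those in the male list only numbered 2 with 1 kb joining, 6 at 25 kb, 0 with the width reached in either list alone, and 3 when at least 1 kb of the mark was asked for. The share with H3K27Ac was 99.4% at 40 kb, 96.1% with an H3K27Ac limit of 10 kb and 99.1% with the width reached in the female list alone. H3K27Me3 in the female list only was found in 86 at 25 kb, 19 at 40 kb, 25 with an H3K27Ac limit of 10 kb, and 25 with the width reached by female regions alone and 18 by male regions alone. H3K27Me3 in the male list only was found in 28 with 1 kb joining, 33 at 25 kb, 6 at 40 kb, 7 with an H3K27Ac limit of 10 kb and 6 with the width reached in the male list alone. The share with a TSS was 79.3% with 1 kb joining, 79.4% at 40 kb, 70.1% with an H3K27Ac limit of 10 kb, 79.2% with the width reached in the female list alone, 84.1% within 5 kb and 79.6% for all annotated genes. The other 51 values of these results were counted as not moved. That still allowed 710 stretches with an H3K27Ac limit of 20 kb and 646 with 1 kb joining. It also allowed a share with a TSS of 71.5% with an H3K27Me3 limit of 10 kb. Counts of list genes moved by over 1.5 times in 29 of 88 cases. Pluripotency factors reached 2 with an H3K27Ac limit of 20 kb, and Lef1 left the group when the last base of the grid was counted, an alternative chosen after seeing the data.

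Depth, the caller and its threshold are unknown. The female lists are longer for every mark, which cannot be told apart from sex in these lists.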
